A study of Rattus norvegicus with 10 samples.

Results

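The 10 genes described here encode receptors, junction proteins and other surface or signalling proteins of blood vessel endothelium: *Kdr*, *Flt1*, *Flt4*, *Tek*, *Tie1*, *Cdh5*, *Emcn*, *Plvap*, *Ehd3* and *Nos3*. They were chosen by gene symbol, and each symbol matched 1 of the 32545 genes of the table. All 10 had a mean of at least 0.1 FPKM (read fragments scaled by transcript length and library size) and entered the test over all genes. No member had separate FPKM ranges in males and females (5.1% of all tested genes had), and none passed the limma test for a difference between the sexes (2.4% of all tested genes did), so counts of 0 of 10 are near those shares. Of 96 other endothelial genes tested, 2 passed and had separate ranges, the *Tek* ligand gene *Angpt2* and the clotting protein gene *Vwf*, both higher in females, no larger a share than over all genes.

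Endothelial cells line all vessels and read growth signals through receptor tyrosine kinases. Vascular endothelial growth factors bind the receptors encoded by *Flt1*, *Kdr* and *Flt4*, and angiopoietins bind the receptor encoded by *Tek*, which works together with the related receptor *Tie1*. In the kidney the endothelium is divided between the fenestrated glomerular capillaries, the fenestrated peritubular capillaries around the tubules, and the larger arteries, veins and lymphatics, and these beds differ in the genes they use.

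The RNA came from renal cortex, with 1 library for each of 5 male and 5 female PCK rats. The PCK rat is a model of autosomal recessive polycystic kidney disease, and both groups carry the *Pkhd1* pck mutation, so no group without cysts was part of the comparison. Ages are 12 to 14 weeks by the labels, which call the tissue kidney, whereas the study's methods name cortex and a somewhat younger age. By those methods the kidneys were flushed with buffered saline. The methods also describe the rats as littermates, and both litters used had different parents. The labels do not give the litter of each rat, and the tests here treat rats that may share parents as independent.

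Libraries held 13912569 to 20285911 reads on genes in males and 14963924 to 19556707 in females, and 157 to 3404 reads per library fell on a member. The mitochondrial share of reads was 14.3% to 26.8% and was highest in female 2. Fold changes are of females over males on the log2(FPKM + 0.1) scale, and adjusted p-values are from limma with Benjamini-Hochberg adjustment over 17631 genes. Levels of different genes are compared in FPKM, which is per length. In RNA from whole tissue, fewer endothelial cells and less RNA per endothelial cell cannot be told apart.

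In the table of RefSeq promoters used here (build GRCr8), 8 of the 10 members were matched, all but *Cdh5* and *Tek*. Those of *Ehd3*, *Tie1* and *Emcn* are shown because the levels of *Ehd3* and *Tie1* followed each other across rats and because *Emcn* held the most copies of the motif described next. Each is the 250 bases before the annotated start, 5′ to 3′ on the strand RefSeq gives the gene, and the capitals mark GGAA or its reverse complement TTCC, the core bound by ETS factors, a family of transcription factors used by endothelial genes. The windows are chr6:27417446-27417695 (minus strand) for *Ehd3*, chr5:137304982-137305231 (minus strand) for *Tie1* and chr2:228564289-228564538 (plus strand) for *Emcn*.
Ehd3: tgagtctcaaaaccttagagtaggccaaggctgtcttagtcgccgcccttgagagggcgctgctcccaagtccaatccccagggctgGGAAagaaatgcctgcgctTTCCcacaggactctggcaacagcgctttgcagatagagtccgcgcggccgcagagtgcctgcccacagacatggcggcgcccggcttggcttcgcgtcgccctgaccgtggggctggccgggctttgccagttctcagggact
Tie1: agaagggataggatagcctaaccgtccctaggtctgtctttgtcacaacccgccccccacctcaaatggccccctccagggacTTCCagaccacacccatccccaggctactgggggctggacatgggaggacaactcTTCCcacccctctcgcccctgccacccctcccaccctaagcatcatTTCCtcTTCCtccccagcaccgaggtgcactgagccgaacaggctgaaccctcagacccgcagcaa
Emcn: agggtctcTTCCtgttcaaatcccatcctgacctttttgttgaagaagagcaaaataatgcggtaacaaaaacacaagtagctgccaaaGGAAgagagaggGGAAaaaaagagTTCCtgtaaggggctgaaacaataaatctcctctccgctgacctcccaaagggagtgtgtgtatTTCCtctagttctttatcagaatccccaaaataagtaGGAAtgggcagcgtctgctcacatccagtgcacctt
The deposited table places *Ehd3* on the plus strand of Rnor_6.0, whereas RefSeq has it on the minus strand of GRCr8, and the builds were not compared. The core occurred 2 times in *Ehd3*, 4 times in *Tie1* and 6 times in *Emcn*, and 2 to 6 times in the 8 members (median 4). It is common: 93.2% of the 33469 promoters of the table hold it in a window of the same length, with a median of 3. At least 6 copies, the number in *Emcn*, were found in 9.27% of promoters. A match to these letters is a description and not a measured site.

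By mean FPKM over the 10 rats, *Plvap* was the most abundant member (71.8 FPKM), followed by *Emcn* (48.7), *Ehd3* (19.9), *Tie1* (17.7), *Kdr* (14.3), *Tek* (12.8), *Flt1* (8.58), *Cdh5* (8.44), *Flt4* (2.75) and *Nos3* (2.44). Neighbours in this order were compared within rats by an exact sign-flip permutation test, two-sided, over 9 pairs. Of these, 7 pairs differed in FPKM beyond the spread between rats. The test does not cover a bias of a gene that all libraries share. *Flt1* and *Cdh5* did not differ beyond their spread (difference 0.137 ± 1.20 FPKM, SD, exact permutation test, adjusted p = 0.723), nor did *Flt4* and *Nos3* (0.316 ± 0.544 FPKM, SD, exact permutation test, adjusted p = 0.116). *Plvap* was above *Emcn* in 10 of 10 rats and *Ehd3* above *Tie1* in 7 of 10 (exact permutation test, adjusted p = 0.0326).

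**Figure D1:**
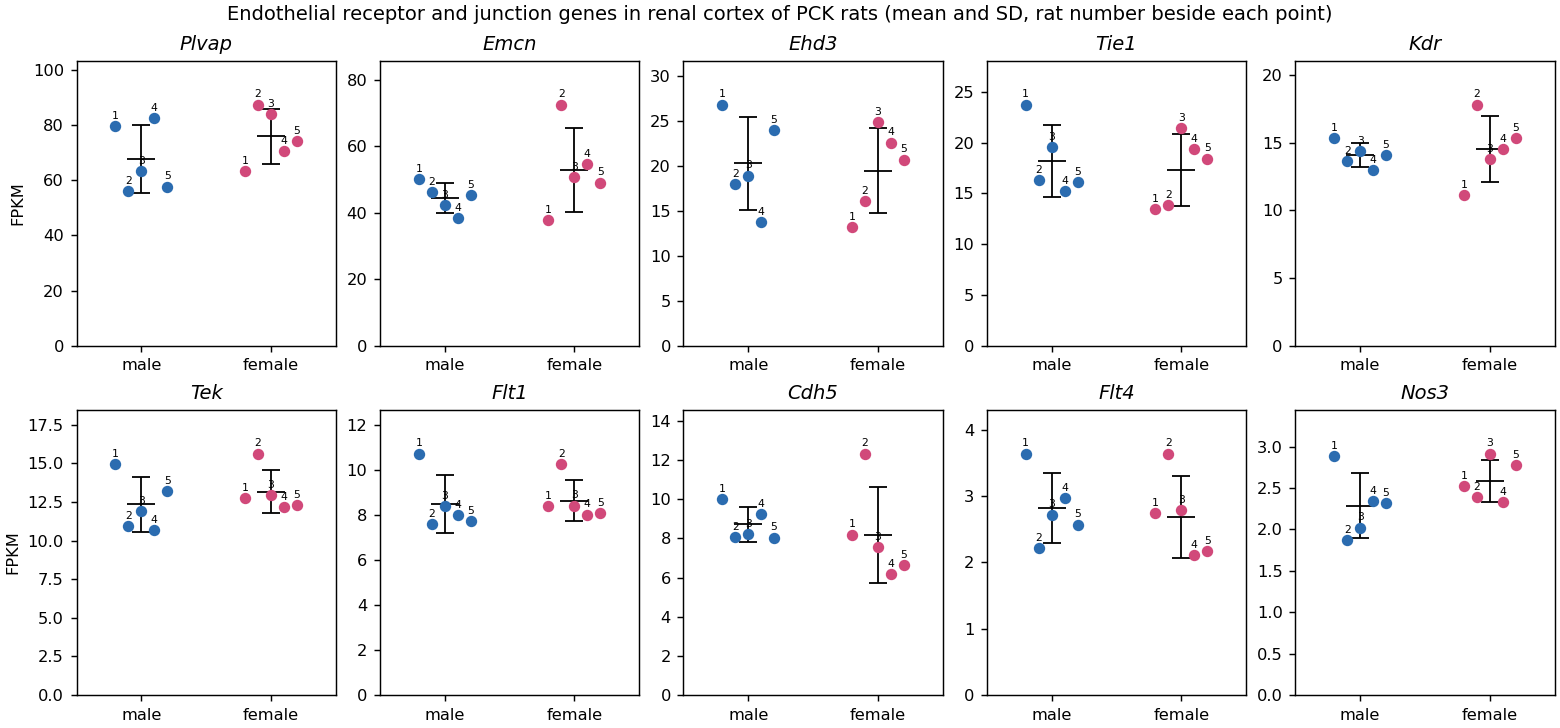
FPKM of the 10 members in each rat, males blue and females pink, with the rat's number beside its point and the group mean and SD in black. The axis of each gene starts at 0. The ranges of the sexes overlap for all 10 genes, and male 1 or female 2 is the highest rat for 9 of them.

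None of the 10 members passed the test for a difference between the sexes (limma, adjusted p at most 0.05), which 2.4% of all tested genes passed. The count past both that threshold and a log2 fold change of 1, the limits in the study's methods, was also 0 (1.32% of all genes). No member had an unadjusted limma p under 0.05 (15.7% of all genes had), and limma-voom on reads recovered from the FPKM gave 0 members adjusted and 0 unadjusted. By the exact permutation test, two-sided and unadjusted, 0 members were at a p of at most 0.05 (14.8% of all genes), and 0 had ranges that did not overlap (5.1% of all genes). The log2 fold changes ran from -0.13 for *Cdh5* to 0.22 for *Emcn*, 6 of 10 were above 0, and their median was 0.03 beside -0.01 over all genes. With single libraries left out, 5 (without female 2 or male 2) to 9 (without male 1) were above 0 and the median ran from -0.00064 (without female 2) to 0.09 (without female 1). Under scaling by total reads and under limma-voom, 4 of 10 were above 0 and the median was -0.04 and -0.05. The lowest bound of a 95% interval was -0.52 (*Ehd3*) and the highest was 0.55 (*Emcn*), so the intervals of all 10 members lay inside a log2 change of 1 in either direction.

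**Figure D2:**
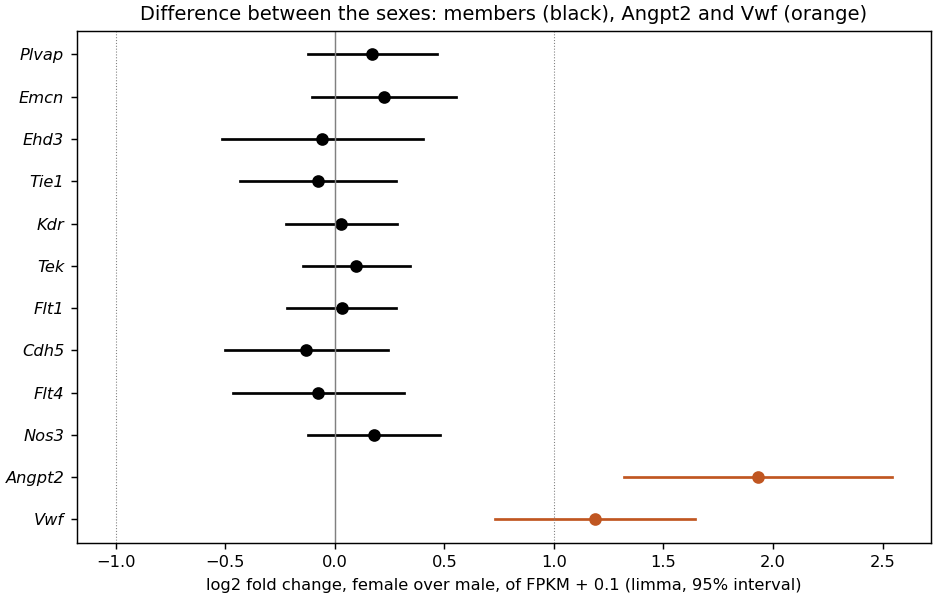
Log2 fold change, females over males, with its 95% interval (limma, log2(FPKM + 0.1)) for the 10 members in black and for Angpt2 and Vwf in orange. Dotted lines mark a log2 change of 1 in either direction. The 10 member intervals cross 0, while that of Angpt2 runs from 1.32 to 2.54 and that of Vwf from 0.73 to 1.64.

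Among the receptors for vascular endothelial growth factors, *Kdr* (ENSRNOG00000046829, Rnor_6.0 chromosome 14 from 34727623 to 34787183), the main signalling receptor of blood vessels, was 15.4, 13.7, 14.4, 13.0 and 14.1 FPKM in males 1 to 5 and 11.1, 17.8, 13.8, 14.6 and 15.4 FPKM in females 1 to 5. The male values lay inside the female range, whose ends were female 1 and female 2. The means were 14.1 ± 0.885 FPKM in males and 14.5 ± 2.44 FPKM in females (SD, n = 5 each, log2 fold change 0.03, 95% interval -0.22 to 0.28, limma adjusted p = 0.938).

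*Flt1* (ENSRNOG00000000940, chromosome 12 from 9034308 to 9205905), which binds the ligand tightly and can act as a decoy, was 10.7, 7.61, 8.40, 8.02 and 7.75 FPKM in males 1 to 5 and 8.43, 10.3, 8.43, 8.03 and 8.11 FPKM in females 1 to 5. Male 1 and female 2 each stood above an otherwise narrow group. The sexes overlapped, with a log2 fold change of 0.03 (95% interval -0.22 to 0.28, limma adjusted p = 0.935). *Flt4* (ENSRNOG00000002511, chromosome 10 from 35078726 to 35121599), the receptor of lymphatic endothelium that is also found on fenestrated capillaries, was 3.64, 2.21, 2.72, 2.96 and 2.57 FPKM in males 1 to 5 and 2.74, 3.64, 2.79, 2.11 and 2.16 FPKM in females 1 to 5. Again male 1 and female 2 were the highest of their sex, and the log2 fold change was -0.08 (95% interval -0.47 to 0.31, limma adjusted p = 0.887). Of these 3 receptors, *Kdr* and *Flt1* turned negative under scaling by total reads and limma-voom, which lowered the median of all genes alike (from -0.01 to -0.08), and *Flt4* turned positive under quantile normalization. Each of them, and *Tie1* and *Ehd3*, also changed sign when single libraries were left out.

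Of the angiopoietin receptors, *Tek* (ENSRNOG00000008587, chromosome 5 from 113725717 to 113852799), which encodes TIE2, was 14.9, 10.9, 11.9, 10.7 and 13.2 FPKM in males 1 to 5 and 12.7, 15.6, 13.0, 12.2 and 12.3 FPKM in females 1 to 5. Female 2 stood apart from the other females, whose values were all inside the male range. The means were 12.3 ± 1.76 FPKM in males and 13.2 ± 1.41 FPKM in females (SD, n = 5 each, log2 fold change 0.10, 95% interval -0.15 to 0.34, limma adjusted p = 0.731). With single libraries left out the log2 fold change of *Tek* ran from 0.04 (without female 2) to 0.17 (without male 1). A pseudogene on the other strand overlaps *Tek* at a mean of 0.0109 FPKM in males and 0 in females. *Tie1* (ENSRNOG00000020173, chromosome 5 from 137294532 to 137321101), its partner without a strong ligand of its own, was 23.7, 16.3, 19.5, 15.2 and 16.1 FPKM in males 1 to 5 and 13.4, 13.9, 21.4, 19.4 and 18.4 FPKM in females 1 to 5. Here female 2 was near the bottom of its group, unlike for *Tek*, and the sexes overlapped (log2 fold change -0.08, 95% interval -0.43 to 0.28, limma adjusted p = 0.874).

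*Cdh5* (ENSRNOG00000013324, chromosome 19 from 1023683 to 1074365) encodes VE-cadherin, which holds endothelial cells together at adherens junctions. It was 10.01, 8.08, 8.21, 9.23 and 8.04 FPKM in males 1 to 5 and 8.19, 12.3, 7.55, 6.17 and 6.62 FPKM in females 1 to 5. Female 2 was the highest rat of all, while 3 of the other females were below every male. The log2 fold change was -0.13 (95% interval -0.50 to 0.24, limma adjusted p = 0.773, exact permutation test, p = 0.675). When single libraries were left out it ran from -0.29 (without female 2, limma adjusted p = 0.183, exact permutation p = 0.0317) to -0.04 (without female 4, 0.952 and 0.984), with -0.07 without female 5.

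*Emcn* (ENSRNOG00000022910, chromosome 2 from 242634399 to 242714182) encodes endomucin, a sialomucin on capillary and venous endothelium. It was 50.1, 46.3, 42.3, 38.4 and 45.3 FPKM in males 1 to 5 and 37.9, 72.5, 50.6, 54.6 and 49.0 FPKM in females 1 to 5. Females 2 and 4 were above all the males and female 3 narrowly so, but female 1 was the lowest rat of all. The means were 44.5 ± 4.40 FPKM in males and 52.9 ± 12.6 FPKM in females (SD, n = 5 each, log2 fold change 0.22, 95% interval -0.10 to 0.55, limma adjusted p = 0.515, the lowest of the members). When single libraries were left out the log2 fold change ran from 0.10 (without female 2, limma adjusted p = 0.668, exact permutation p = 0.397) to 0.34 (without female 1, limma adjusted p = 0.228, exact permutation p = 0.0238).

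*Plvap* (ENSRNOG00000017676, chromosome 16 from 19906318 to 19918689), whose protein forms the diaphragms of fenestrae and is a mark of peritubular capillaries, was 79.4, 56.0, 63.2, 82.4 and 57.7 FPKM in males 1 to 5 and 63.4, 87.4, 83.9, 70.4 and 74.0 FPKM in females 1 to 5. Males 1 and 4 stood above the other males, and the females lay across both levels. The log2 fold change was 0.17 (95% interval -0.12 to 0.46, limma adjusted p = 0.595), and 0.11 (without male 2) to 0.25 (without male 4) with single libraries left out. *Ehd3* (ENSRNOG00000007744, chromosome 6 from 25074955 to 25100977), an endocytic trafficking gene used as a mark of glomerular endothelium, was 26.8, 17.9, 18.9, 13.8 and 24.0 FPKM in males 1 to 5 and 13.2, 16.1, 24.8, 22.6 and 20.7 FPKM in females 1 to 5. It spread widely in both sexes (coefficient of variation 25.4% in males and 24.4% in females), with a log2 fold change of -0.06 (95% interval -0.52 to 0.40, limma adjusted p = 0.933).

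*Nos3* (ENSRNOG00000009348, chromosome 4 from 7320668 to 7342410), which encodes the endothelial nitric oxide synthase, was the least abundant member, at 2.89, 1.87, 2.02, 2.35 and 2.32 FPKM in males 1 to 5 and 2.52, 2.39, 2.92, 2.33 and 2.78 FPKM in females 1 to 5. Male 1 was among the highest rats, and 3 of the other males were below every female. The log2 fold change was 0.18 (95% interval -0.12 to 0.48, limma adjusted p = 0.582, exact permutation test, p = 0.175). With single libraries left out it ran from 0.11 (without male 2, limma adjusted p = 0.769, exact permutation p = 0.357) to 0.26 (without male 1, limma adjusted p = 0.432, exact permutation p = 0.0397). *Atg9b* overlaps *Nos3* on the other strand at a mean of 0.0360 FPKM in males and 0.00430 in females.

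Among rats of 1 sex, the median coefficient of variation of the members was 16.1% in males and 18.5% in females, beside 13.0% and 16.2% over 13363 genes that averaged 1 FPKM or more. Female 2 was the highest rat for 6 members (*Kdr*, *Flt4*, *Cdh5*, *Tek*, *Emcn* and *Plvap*) and male 1 for 3 (*Flt1*, *Tie1* and *Ehd3*). Female 1 was the lowest for 4 and male 2 for 3. Summed over the 10 members, female 2 had 251.96 FPKM and male 1 had 237.6 FPKM, and the other rats had 173.6 FPKM (female 1) to 229.1 FPKM (female 3).

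Across the 10 rats, the members rose and fell together only in part. Of 45 pairs, 40 had a positive Pearson r on log2 values, and the median r was 0.38 beside -0.02 between a member and other genes. The p of r after Benjamini-Hochberg adjustment over the 45 pairs was at most 0.05 for 5 pairs, whereas no pair passed by Spearman's rho (lowest adjusted p = 0.110; permutation tests with 100000 resamples). All members of a pair share their library, and with it the depth and tissue of that rat.

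The pair with the highest r was *Cdh5* and *Flt4* (r = 0.90, permutation p = 0.000540, adjusted p = 0.0243, rho = 0.85, permutation p = 0.00285, adjusted p = 0.110). Without the 2 rats farthest from the median of *Cdh5*, females 2 and 4, r was 0.84 (exact permutation p = 0.0125). *Ehd3* and *Tie1*, the pair whose promoters are shown above, had r = 0.84 (permutation p = 0.00343, adjusted p = 0.0386, rho = 0.83, permutation p = 0.00487, adjusted p = 0.110) and 0.76 without the 2 farthest rats (exact permutation p = 0.0276). *Emcn* and *Kdr* had r = 0.86 (permutation p = 0.00277, adjusted p = 0.0386, rho = 0.73, permutation p = 0.0200, adjusted p = 0.209) and 0.62 without the 2 farthest (exact permutation p = 0.101). *Flt1* with *Flt4* had r = 0.85 (permutation p = 0.00244, adjusted p = 0.0386, rho = 0.66, permutation p = 0.0451). *Tek* with *Flt1* had r = 0.84 (permutation p = 0.00481, adjusted p = 0.0433, rho = 0.67, permutation p = 0.0387). Without male 1 and female 2, r was 0.48 (exact permutation p = 0.223) and 0.38 (exact permutation p = 0.344). These rats were the farthest from the median of the first gene, so leaving them out also narrows its range. Without female 2 alone r was 0.78 and 0.75. Within the sexes, as a description only, r was 0.89 in males and 0.92 in females for *Flt1* with *Flt4*. For *Tek* with *Flt1* it was 0.77 and 0.998.

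The further pairs of *Cdh5*, *Flt1*, *Flt4* and *Tek* also fell without the same rats. Without male 1 and female 2, r went from 0.71 to -0.03 for *Flt1* with *Cdh5*, from 0.66 to 0.01 for *Tek* with *Flt4* and from 0.54 to -0.38 for *Tek* with *Cdh5*. Without female 2 alone it was 0.54, 0.50 and 0.19 in the same order. Within the sexes, as a description only, it was 0.83, 0.64 and 0.44 in males and 0.98, 0.93 and 0.97 in females.

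The lowest r was that of *Cdh5* with *Tie1* (-0.31, permutation p = 0.388, rho = -0.24, permutation p = 0.515). It was -0.76 without male 1 and female 1, the 2 farthest rats (exact permutation p = 0.0225), and -0.01 without female 2. Within the sexes, as a description only, it was 0.56 in males and -0.69 in females. *Tek* and its partner *Tie1* had r = 0.12 (permutation p = 0.743, rho = 0.04, permutation p = 0.918). The ratio of *Tie1* to *Tek* in FPKM was 1.22 to 1.64 in males and 0.887 to 1.65 in females, the lowest being that of female 2.

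**Figure D3:**
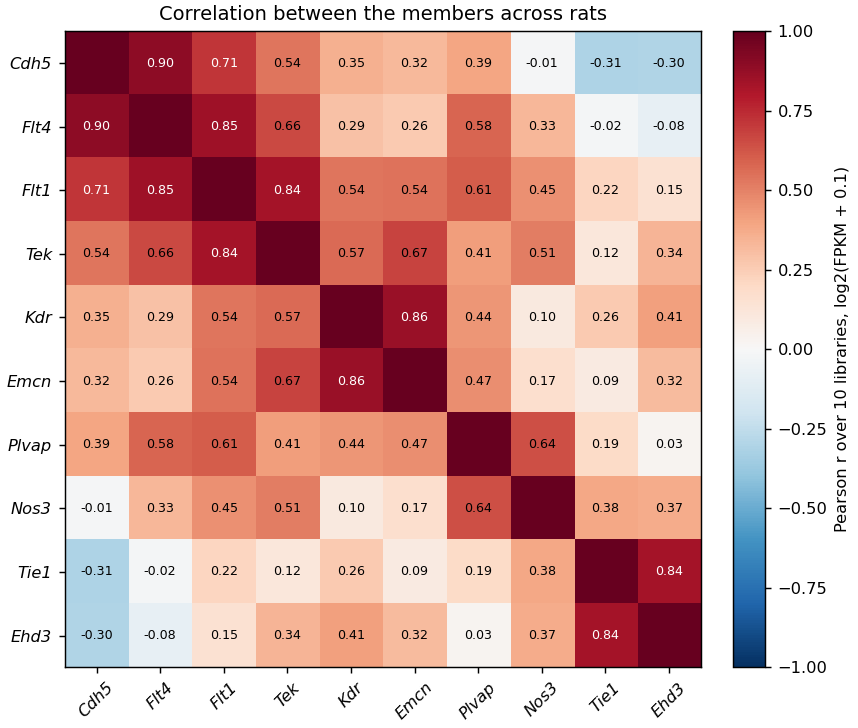
Pearson r between each pair of members over the 10 rats on log2(FPKM + 0.1), from blue (negative) to red (positive). Cdh5, Flt4, Flt1 and Tek have positive values among themselves from 0.54 to 0.90, most of which were lower without male 1 and female 2. Ehd3 and Tie1 form a pair (0.84) with values below 0 against Cdh5 and Flt4.

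The members were also set against summed FPKM of marker lists of 8 other cell types, in 80 relations that were added after the values were seen. After Benjamini-Hochberg adjustment 0 of the 80 passed by r and 0 by rho. The lowest adjusted p was that of *Emcn* with the sum of 4 podocyte genes (*Nphs1*, *Podxl*, *Synpo* and *Wt1*), the epithelial cells of the glomerular filter, with r = 0.86 (permutation p = 0.000710, adjusted p = 0.0568) and rho = 0.82 (permutation p = 0.00603, adjusted p = 0.291). Without the 2 rats farthest from the median of *Emcn*, r was 0.78 (exact permutation p = 0.0210), and it was 0.82 after the mean of each sex was subtracted. With the collecting duct sum, *Emcn* had r = 0.57 (permutation p = 0.0786, adjusted 0.349, rho = 0.71, permutation p = 0.0267) and 0.83 without the same 2 rats (exact permutation p = 0.00900), and *Tie1* had r = 0.65 (permutation p = 0.0431, adjusted 0.267, rho = 0.65, permutation p = 0.0488), 0.62 without its 2 farthest rats (exact permutation p = 0.101) and 0.93 after sex means were subtracted, the highest such value of the 80. *Podxl* is also expressed by endothelium. The podocyte sum was 55.6 to 80.9 FPKM in males and 60.4 to 98.2 in females, and it was highest in female 2, as was *Emcn*. The list was altered after the values were seen and this adjusted p lies near the threshold, so the relation is given as a description. At an unadjusted permutation p under 0.05 for r there were 14 of the 80 relations, and the other 12 beside *Emcn* with podocyte and *Cdh5* with mural genes all had an adjusted p of 0.267. The 14 were spread over cell types: 5 were of *Emcn*, *Tek*, *Flt1*, *Kdr* and *Plvap* with the podocyte sum (r from 0.68 to 0.86), 5 were of *Cdh5* with mural, leukocyte, fibroblast, proximal tubule and thick limb sums (r from -0.65 to 0.85), 3 were of *Tie1* with collecting duct, proximal tubule and blood sums (r from -0.69 to 0.65) and 1 was of *Flt4* with the mural sum (r = 0.65). With the podocyte sum and without the 2 farthest rats, r was 0.48 for *Tek*, 0.50 for *Flt1*, 0.55 for *Kdr* and 0.52 for *Plvap*. Their exact permutation p ran from 0.160 (*Kdr*) to 0.220 (*Tek*). The part of glomerular or other cell content in the levels of the members was not tested.

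*Cdh5* had r = 0.27 with the podocyte sum (permutation p = 0.459, rho = 0.05, permutation p = 0.892). It had r = 0.85 with the sum of 6 mural genes, those of smooth muscle and pericytes (permutation p = 0.00259, adjusted p = 0.104, rho = 0.75, permutation p = 0.0167, adjusted p = 0.376), and 0.71 without the 2 rats farthest from the median (exact permutation p = 0.0539). Within the sexes, with 5 rats each and as a description only, that r was -0.09 in males and 0.93 in females. *Cdh5* had r = 0.72 with the leukocyte sum (permutation p = 0.0238, rho = 0.66, permutation p = 0.0439) and 0.68 with the fibroblast sum (permutation p = 0.0360, rho = 0.54, permutation p = 0.112). Without the 2 farthest rats these were 0.54 (exact permutation p = 0.149) and 0.75 (exact permutation p = 0.0306). Within males they were -0.18 and 0.24, and within females 0.88 and 0.81. The mural sum was 170 to 216 FPKM in males and 74.6 to 264 in females, again highest in female 2. *Ehd3*, the mark of glomerular endothelium, had r = 0.40 with the podocyte sum (permutation p = 0.257, rho = 0.44, permutation p = 0.208), and 0.00 without the 2 farthest rats.

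Lists of other cell types also held genes that differed between the sexes. Of 4 fibroblast genes, 4 had a negative log2 fold change, and 1, *Col3a1*, a fibrillar collagen, passed the test (81.8 to 39.5 FPKM, log2 fold change -1.14, limma adjusted p = 0.0477). The fibroblast sum was 233 to 319 FPKM in males and 76.4 to 227 in females. *Cubn*, a proximal tubule endocytic receptor (log2 fold change 0.72, limma adjusted p = 0.0467), and *Avpr2*, the vasopressin receptor of the collecting duct (0.44, limma adjusted p = 0.0469), were higher in females. Leukocyte sums were 51.2 to 86.8 FPKM in males and 24.4 to 70.0 in females, and blood sums spanned 79.5 to 429 FPKM and 47.7 to 455 FPKM. Of the podocyte, mural, thick limb, leukocyte and blood lists, no gene passed. Their largest log2 fold changes were 0.37 for *Synpo*, 0.32 for *Wt1* and 0.27 for *Podxl* (podocyte), and -0.57 for *Pdgfrb*, -0.51 for *Tagln* and -0.51 for *Rgs5* (mural). In the thick limb list *Umod* and *Slc12a1* both had 0.35. Among leukocyte genes *Adgre1* had -0.73, *Csf1r* had -0.49 and *Cd3e* had -0.48, and among blood genes *Hba1* had 0.36 and *Hbb* had 0.32. Limma adjusted p-values of these genes were 0.120 (*Pdgfrb*) to 0.870 (*Hbb*). The part of these cell types in the values of the members was not tested.

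Of 101 further endothelial genes in 7 lists, 97 were in the table and 96 were tested. By limma, 2 were higher in females and 0 were lower (16 at an unadjusted p under 0.05, where 15.7% of all genes were), which is 2 of 96 where 2.4% of all genes were called. By the exact permutation test, 7 were higher and 5 lower at an unadjusted p of at most 0.05, where 14.8% of all genes were. Their median log2 fold change was -0.03. Both called genes, and no other of the 96, had separate ranges, where 5.1% of all genes had, and both were called under all 19 alternative settings.

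*Angpt2* (ENSRNOG00000016696, chromosome 16 from 75966352 to 76016195) encodes a ligand of the *Tek* receptor that endothelial cells store and release and that often opposes the action of *Angpt1*. It was 3.71, 4.25, 3.01, 5.07 and 5.74 FPKM in males 1 to 5 and 23.8, 13.6, 8.56, 23.0 and 19.1 FPKM in females 1 to 5. The lowest female, female 3, was above the highest male, and females 1 and 4 were the highest. The means were 4.36 ± 1.08 FPKM in males and 17.6 ± 6.47 FPKM in females (SD, n = 5 each), a log2 fold change of 1.93 (95% interval 1.32 to 2.54, limma adjusted p = 0.00369, exact permutation test, p = 0.00794, the smallest the design allows). *Angpt2* overlaps *Mcph1*, which is read from the opposite strand, and the strand setting of the read counting is not given in the sources used here. *Mcph1* averaged 0.743 FPKM in males and 0.665 in females (limma adjusted p = 0.858).

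The female rats with the most *Angpt2* were not those with the most *Tek*: female 1 had 23.8 FPKM of *Angpt2* and 12.7 FPKM of *Tek*, and female 2 had 13.6 and 15.6 FPKM. The ratio of *Angpt2* to *Tek* in FPKM was 0.249 to 0.474 in males and 0.660 to 1.88 in females. *Angpt1*, the activating ligand, was 6.92 to 13.1 FPKM in males and 5.58 to 9.88 in females (log2 fold change -0.42, 95% interval -0.85 to 0.02, limma adjusted p = 0.340). The ratio of *Angpt2* to *Angpt1* was 0.229 to 0.829 in males and 0.949 to 3.42 in females, so the ranges of both ratios were separate between the sexes. These ratios restate the difference in *Angpt2* and were not tested.

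*Vwf* (ENSRNOG00000019689, chromosome 4 from 158088505 to 158219523) encodes von Willebrand factor, which endothelial cells of larger vessels store in the same granules as the angiopoietin of *Angpt2*. It was 3.55, 4.32, 3.16, 3.94 and 4.69 FPKM in males 1 to 5 and 8.19, 5.78, 8.55, 10.4 and 14.0 FPKM in females 1 to 5. Female 5 was the highest and female 2, the rat with the highest FPKM sum of the members, the lowest of its sex. The means were 3.93 ± 0.604 FPKM and 9.38 ± 3.05 FPKM (SD, n = 5 each, log2 fold change 1.19, 95% interval 0.73 to 1.64, limma adjusted p = 0.0118, exact permutation test, p = 0.00794). *Selp*, a further protein of those granules, was 0.952 FPKM in males and 0.709 FPKM in females (log2 fold change -0.52, limma adjusted p = 0.462). The ratio of *Vwf* to *Cdh5* was 0.355 to 0.583 in males and 0.469 to 2.11 in females, where female 2 fell inside the male range. The part of the cell types listed above, whose fibroblast sums were separate between the sexes, in the levels of *Angpt2* and *Vwf* was not tested.

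**Figure D4:**
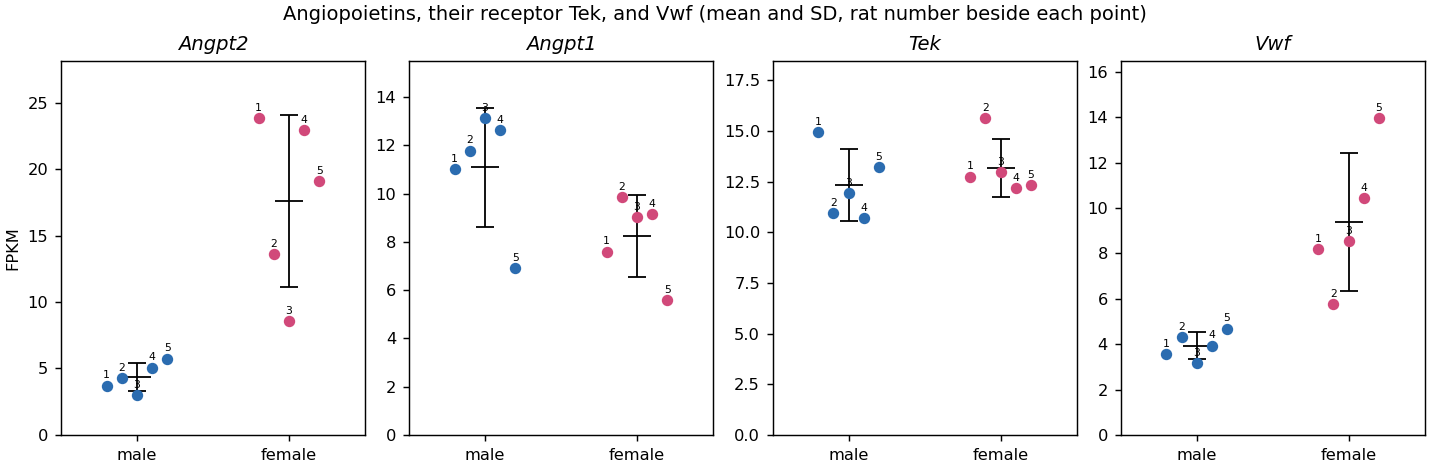
FPKM of Angpt2, Angpt1, Tek and Vwf in each rat, males blue and females pink, with the rat's number beside its point and the group mean and SD in black. Every female lies above every male for Angpt2 (8.56 against 5.74 FPKM at the closest) and Vwf (5.78 against 4.69 FPKM), and the sexes overlap for Angpt1 and Tek.

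In the other endothelial lists no gene passed the test, and the 3 genes with the largest changes and a mean of at least 1 FPKM are given as values. Among ligands and co-receptors of vascular endothelial growth factor, *Nrp2* had a log2 change of -0.45 (limma adjusted p = 0.338), *Vegfb* of 0.35 (0.293) and *Nrp1* of -0.31 (0.107). *Vegfa*, the ligand of *Kdr*, was 58.8 to 70.6 FPKM in males and 68.4 to 79.8 in females (log2 fold change 0.25, limma adjusted p = 0.126). Among junction and adhesion genes, *Vcam1* had a log2 change of -0.56 (limma adjusted p = 0.243), *Esam* of 0.41 (0.107) and *Icam1* of -0.25 (0.527).

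Among partners of nitric oxide signalling, the subunits of its receptor guanylyl cyclase, *Gucy1b1* and *Gucy1a1*, had log2 fold changes of -0.72 (limma adjusted p = 0.223) and -0.63 (0.233), and *Ddah2* had -0.39 (0.249). Among transcription factors, *Sox7* had 0.53 (0.347), *Foxc2* had 0.48 (0.354) and *Gata2* had 0.39 (0.218). Among genes of endothelial subtypes, *Fbln5* had -0.44 (0.224), *Igfbp3* had -0.42 (0.458) and *Cxcl12* had -0.32 (0.180). *Cldn5*, a tight junction gene of endothelium, was listed at 0 in all 10 libraries, and *Pecam1*, *Prkg1*, *Nos2* and *Ackr1* were not analysed here.

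The genes whose pattern over the rats was most like that of the members were ranked by the r with the mean of the 10 standardized members, after sex means were subtracted, over 13353 genes and 10 libraries. The first 10 were *Tgfbr3* (r = 0.96), *Rgcc* (0.96), *Uaca* (0.93), *Tns2* (0.92), *Mcoln3* (0.92), *Syt17* (0.91), *Scnn1b* (0.91), *Podxl* (0.91), *Ptger4* (0.91) and *Scnn1g* (0.91). They are a mixed group that includes subunits of the epithelial sodium channel of the collecting duct (*Scnn1b* and *Scnn1g*). It also holds *Podxl*, a gene of the podocyte list that endothelium expresses too. Of 85 other endothelial genes, 14 (16.5%) had an r over 0.7 and the median was 0.45, beside 307 of the 13353 genes (2.30%) and a median of -0.03.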

How the data were processed

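RNA-seq of renal cortex from 5 male and 5 female PCK rats was analysed, grouped by the sex in the labels. The authors deposited FPKM for 32545 genes, and by their methods the reads had been mapped with HISAT2 to Rnor_6.0. The submitters' processing notes also name HISAT2 2.0.5, featureCounts 1.5.0-p3, StringTie 1.3.3b and fastp. FPKM are corrected for length and depth but not for cell composition. The library size that the FPKM imply was above the reads on genes in some rats and below them in others. Division by the FPKM of 1 read gave whole reads for 100% of values (tolerance 0.01 read), and the chi-square per degree of freedom between the closest libraries was 10.1.

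limma (lmFit and eBayes with trend) was run on log2(FPKM + 0.1) for 17631 genes that averaged 0.1 FPKM or more. Since the values are FPKM, limma-voom on recovered reads was an alternative only. Single genes had a two-sided exact permutation test over 252 assignments, with a smallest p of 0.00794. Correlations had permutation tests with 100000 resamples. Whether rats of a group came from the same litter was not used, so p-values measure the spread between these rats.

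The members and the gene lists were chosen with earlier results of these data known. All members were named, and of each other list the genes with an adjusted p of at most 0.05, or else the 3 with the largest change and a mean of at least 1 FPKM. The 10 genes most like the members were also named. *Mcph1*, *Atg9b*, *Selp*, *Vegfa* and *Angpt1*, the ratios and the relations to other cell types were chosen after the values were seen. Of the lists of other cell types, 1 of 4 fibroblast, 1 of 4 proximal tubule and 1 of 3 collecting duct genes passed, and 0 of the podocyte, mural, thick limb, leukocyte and blood lists. The podocyte sum leaves out 1 gene of the list as first written, which is not reported here, a choice made after the data were seen. The main limma fit was tested on simulated data, and the exact permutation test was checked against that of scipy on a subset of the genes. The software was limma 3.58.1 in R 4.3.3, and numpy 2.4.6, scipy 1.17.1 and pandas 2.3.3 in Python 3.11.15.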

Additional observations from a re-analysis of the deposited data

Results flagged for a closer look

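Of 24 groups of 5 rats tested for a rat far from the others (the 10 members, *Angpt2* and *Vwf* in each sex), 3 were marked, and chance marks about 1 in 20 such groups. *Flt1* was at 10.7 FPKM in male 1, where the next male was at 8.40 FPKM. *Flt1* was at 10.3 FPKM in female 2, where the next female was at 8.43 FPKM. *Tek* was at 15.6 FPKM in female 2, where the next female was at 13.0 FPKM. Female 2 also had the highest mitochondrial share of reads (26.8%) and the highest podocyte sum (98.2 FPKM), and the part of these in its *Flt1* and *Tek* was not tested.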

How the results depend on the processing

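The 0 members called by limma, alone or with a log2 fold change of 1, and the 2 other endothelial genes called held under 19 alternatives, except that *Nrp1* was also called without female 2. *Angpt2* stayed between 1.74 and 2.17 (adjusted p 0.000767 to 0.0146) and *Vwf* between 1.03 and 1.35 (0.00289 to 0.0368). Scaling by total reads turned *Kdr* to -0.0453 and *Flt1* to -0.0441, limma-voom turned them to -0.0463 and -0.0443, and both moved the median of all genes to -0.08 and that of the members to -0.04 and -0.05, with 4 of 10 members above 0. Quantile normalization turned *Flt4* to 0.0197. Leaving out each library gave log2 fold changes of -0.0475 to 0.122 for *Kdr*, -0.0324 to 0.117 for *Flt1*, -0.188 to 0.0181 for *Flt4*, -0.158 to 0.0249 for *Tie1* and -0.187 to 0.0730 for *Ehd3*. The other members kept their sign, at -0.289 to -0.0414 for *Cdh5*, 0.0356 (without female 2) to 0.170 (without male 1) for *Tek*, 0.103 to 0.337 for *Emcn*, 0.107 (without male 2) to 0.246 (without male 4) for *Plvap* and 0.114 to 0.264 for *Nos3*. It also gave 0 to 1 members at an exact permutation p of at most 0.05 (*Nos3* without male 1, *Emcn* without female 1, *Cdh5* without female 2), and a median r between members of 0.311 to 0.431. That r was 0.439 after the mean of each sex was subtracted. The causes were not tested. In the order of levels, 6 to 7 of 9 neighbours differed when each library was left out, an alternative chosen after seeing the data.

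With the replicate number as a block, 0 members and 2 other endothelial genes were called, and 231 genes in all against 424 without it. Same-numbered rats had correlations of deviations of -0.16 to 0.16, and only male 3 correlated best with its own number. The labels do not say what the numbers mean, and whether they pair the rats was not tested. Leaving out 1 library gave 266 (without female 5) to 550 (without female 2) genes, with 282 without male 2 and 278 without male 3.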
